A study of Mus musculus with 18 samples.

Results

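The genes for the proteins of the cytosolic ribosome were followed through 18 RNA-seq libraries of mouse double-negative T cells, T cells that carry neither CD4 nor CD8. Members were chosen by symbol: protein-coding genes named Rpl or Rps followed by a digit, Rplp0 to Rplp2 and Rpsa, without the processed pseudogenes named -ps and without the Rps6k kinases. The rule found 86 genes among the 52506 genes that all 3 deposited tables hold. Rps19bp1 meets the letter pattern but encodes a protein that binds a ribosomal protein, so it was set aside, which left 85 members: 49 of the large subunit, 33 of the small subunit and the 3 stalk proteins.

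The cells came from spleen and lymph node of wild type mice, were converted to double-negative T cells from CD4+ T cells, and carry the label of anti-CD3/CD28 antibody treatment, the T cell receptor and costimulation signal. Each of 3 sets of libraries has its own table, its own controls and 3 libraries per group. In the first set, WT controls were compared with WTATPgs, cells given 400 µM ATPgs, a ligand spelled as in the labels, for 6 h. In the second, DNT controls were compared with ADO, cells given 400 µM adenosine for 6 h. In the third, all cells received 250 nM of an inhibitor of A2aR, an adenosine receptor, and R (inhibitor alone) was compared with RA (inhibitor and 400 µM adenosine for 6 h). The labels do not say whether the 3 libraries of a group are separate cultures or animals, so p-values measure the spread between these libraries, which may be technical. They also do not give the purity of the converted cells.

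A ribosome of the cytosol is built from a small subunit, which reads the mRNA, a large subunit, which joins amino acids, and a stalk of acidic proteins on the large subunit that recruits the translation factors. Cells make its proteins in near equal amounts, and most of their mRNAs begin with a C followed by a run of pyrimidines, the 5′ terminal oligopyrimidine (TOP) motif, through which the kinase mTORC1 and the protein LARP1 control their translation. Activated T cells raise ribosome production before they divide, with Myc and mTORC1 among the known regulators. RNA-seq of total RNA, as here, measures the level of these mRNAs and not how often they are translated, and in bulk libraries fewer cells of a type and less RNA per cell cannot be told apart.

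Because the TOP motif sits at the first bases of the mRNA, 30 bases around the transcription start that RefSeq lists (10 before it and 20 from it on, mouse build GRCm38.p6) are shown for members whose values are described further on. Capitals mark the longest pyrimidine run beginning with C that starts within 10 bases of the listed start. Of the 85 members, 65 had a RefSeq entry, and 14 of these (21.5%) had, at any start listed for the gene, C at the listed base followed by at least 4 bases that were C or T, against 307 of 10607 other genes tested (2.89%). Within 10 bases of any listed start such a run was found in 40 of the 65 members (61.5%) and in 37.0% of the other genes. Where a gene has several listed starts, the sequence shown is at the start closest to the GENCODE gene start, and 13 members had the pattern at that base. Rps6, the phosphorylated protein of the small subunit (chr4:86857348-86857377, minus strand), Rplp2 of the stalk (chr7:141447641-141447670, plus), Rpl15 of the large subunit (chr14:18270967-18270996, minus) and Rpl35 (chr2:39005112-39005141, minus) had such a run at the listed start.
Rps6: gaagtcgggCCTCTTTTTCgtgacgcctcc
Rplp2: cagcgtCTTCCTTTCgccgccggacgccgc
Rpl15: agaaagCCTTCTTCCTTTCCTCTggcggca
Rpl35: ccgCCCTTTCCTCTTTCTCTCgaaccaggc

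Members with the largest ligand effects did not all show that pattern at the listed base, and the listed base is an annotation, not a start measured in these cells. Rpl13a (chr7:45128726-45128755, minus) has its run downstream of the listed start. Rpl27 (chr11:101442235-101442264, plus) and Rplp0, the base of the stalk (chr5:115559457-115559486, plus), have short runs. Rpl7l1, a paralog of Rpl7 (chr17:46782637-46782666, minus), and Rps27l, a paralog of Rps27 (chr9:66946076-66946105, plus), have their runs before the listed start.
Rpl13a: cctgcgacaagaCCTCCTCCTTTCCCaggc
Rpl27: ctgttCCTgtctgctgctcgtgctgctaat
Rplp0: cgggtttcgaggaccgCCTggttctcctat
Rpl7l1: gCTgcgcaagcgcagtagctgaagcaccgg
Rps27l: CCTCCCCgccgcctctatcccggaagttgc

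Rps27 on chromosome 3 (chr3:90213629-90213658, minus) and its copy Rps27rt on chromosome 9 (chr9:114982720-114982749, minus) are shown because their transcripts are nearly identical, so reads counted to them could be split between the 2 genes and their values are uncertain.
Rps27: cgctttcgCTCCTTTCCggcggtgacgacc
Rps27rt: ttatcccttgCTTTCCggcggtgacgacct

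Other short patterns were searched on both strands of the RefSeq promoters, 300 bases each. CCGGAAG, a core of ETS and GABP sites, occurred in 40.0% of the 65 members and 19.5% of the other genes. AAGATGG, part of YY1 sites, occurred in 15.4% and 8.23%, TGACGTCA, the cyclic AMP response element, in 7.69% and 3.47%, GGGCGG, an SP1 core, in 61.5% and 65.7%, and TATAAA, the TATA box, in 10.8% and 9.14%. A match describes letters in a promoter and does not show binding.

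Total counts per library ranged from 20156082 to 24331577. T cell receptor and signalling genes (11 markers, among them Cd3e and Lck) summed to 3000 to 3180 CPM (counts divided by the TMM-adjusted library total) in WTATPgs and 3040 to 3090 CPM in WT. Cd4, Cd8a and Cd8b1 together summed to 21.5 to 24.4 CPM in WT and 6.45 to 12.1 CPM in WTATPgs. R replicate 3 stood apart from the other libraries of its set, with the highest member share, the highest share of mitochondrially encoded genes and T cell markers at 3110 CPM against 4020 and 4180 CPM in R replicates 1 and 2, so results of that set are given with and without it.

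The members took 5.27% to 5.4% of all counts in WT and 5.4% to 5.49% in DNT, but 10.7% to 16.3% in R. WT replicates 1 to 3 had 5.4%, 5.29% and 5.27%, and the WTATPgs libraries had 4.89%, 4.84% and 5.07%, so every treated library lay below every control library. The group means were 5.32% ± 0.0682 and 4.93% ± 0.121 (SD, n = 3), a ratio of 0.927. The exact permutation test of 3 against 3 libraries, two-sided, gave p = 0.1, the smallest it can give (0.3 after Benjamini-Hochberg adjustment over the 3 ligand comparisons). In the second set DNT had 5.41%, 5.49% and 5.4% and ADO 5.45%, 5.47% and 5.53%, groups that overlapped (exact permutation p = 0.3, adjusted 0.45). In the third set R had 13.1%, 10.7% and 16.3% and RA 12.4%, 12.8% and 12%, all 3 RA values within the spread of R (exact permutation p = 0.7, adjusted 0.7). Without R replicate 3 the RA share lay 0.506 percentage points above R, and with it 0.973 points below (RA minus R, -0.973).

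**Figure D1:**
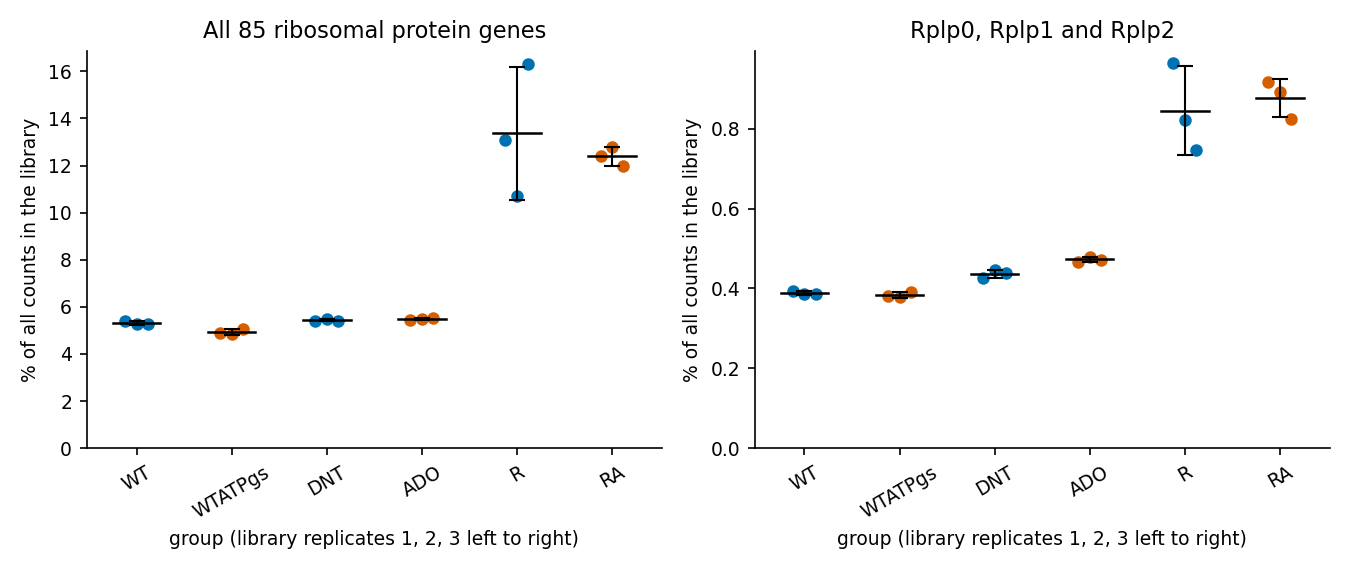
Percent of all counts in each library that fell on the 85 ribosomal protein genes, by group (left), and the same for the 3 stalk genes (right); points are libraries, horizontal lines group means and whiskers 1 SD, and both axes start at 0. WTATPgs lies below WT (4.84% to 5.07% against 5.27% to 5.4%), ADO and DNT overlap, and R and RA lie higher, with R replicate 3 at 16.3% for all members but at 0.748%, the lowest of its group, for the stalk.

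With ATPgs, 63 of the 82 members tested fell and 0 rose (edgeR quasi-likelihood test, Benjamini-Hochberg adjusted p under 0.05). Over all 15124 genes tested, 19.4% were called lower and 17.7% higher. The median member changed by -0.17 on the log2 scale, a fall of 11%, where the median of all genes was -0.00, and members ranged from -0.53 to 0.06. At an unadjusted p under 0.05, 68 members were lower and 0 higher, and DESeq2 and limma-voom also called 0 higher. In 67 of the 82 (81.7%), all treated libraries lay below all controls, against 26.8% of all genes tested. The 3 members not tested were Rpl3l, Rpl10l and Rpl39l, whose counts were too low.

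Both subunits were affected: 37 of 46 large subunit members fell, with a median of -0.18, and 24 of 33 small subunit members fell, with a median of -0.16. Rpl3, which lies close to the peptidyl transferase centre, had 1710, 1710 and 1660 CPM in WT and 1400, 1380 and 1440 CPM in WTATPgs. All 3 treated libraries lay below all controls, and the log2 fold change was -0.27 ± 0.03 (SE, adjusted p = 0.000286). Rpl27, another large subunit protein, had 556, 535 and 522 CPM in WT against 429, 443 and 453 CPM in WTATPgs, again apart (-0.28 ± 0.04, adjusted p = 0.000614).

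Rpl13a had 24.3, 23.0 and 25 CPM in WT and 17.8, 16.5 and 21.2 CPM in WTATPgs, with no overlap (-0.38 ± 0.10, adjusted p = 0.016, lost in 5 of 15 alternatives). Its level is low beside other members per length, 48.6 CPM per kilobase in WT where the median member had 814, and the gene shares same-strand exons with the read-through model Gm45713, which has 0 counts in every library.

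On the small subunit, Rps6, the substrate of S6 kinase, had 1410, 1400 and 1370 CPM in WT and 1210, 1210 and 1260 CPM in WTATPgs. The groups did not overlap (-0.18 ± 0.03, adjusted p = 0.00277). Rps27a, which is made as a fusion with ubiquitin, fell as well (-0.25 ± 0.05, adjusted p = 0.00382), and Rpsa, also known as a laminin receptor, by less (-0.14 ± 0.04, adjusted p = 0.0333). In Rpsa, WTATPgs replicate 3 stood at 1930 CPM, close to the WT libraries (1970 to 2010), and replicates 1 and 2 at 1750 and 1720, and its call was lost in 10 of 15 alternative settings.

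Rpl5 and Rpl11 form the 5S ribonucleoprotein with the 5S rRNA, the particle that can bind Mdm2 when ribosome assembly fails. Rpl11 had 612, 619 and 598 CPM in WT and 523, 511 and 545 CPM in WTATPgs (-0.21 ± 0.04, adjusted p = 0.00209). Rpl5 fell as well (-0.19 ± 0.04, adjusted p = 0.00889), and in both genes every treated library lay below every control. Of the 17 tested members mutated in Diamond-Blackfan anaemia, an inherited failure of red cell production, 13 fell (76.5%). That is near the 76.8% of all members, where 19.4% of all genes fell. In this list Rps19 (-0.08 ± 0.04, adjusted p = 0.135) and Rps26 (-0.07 ± 0.05, adjusted p = 0.273) did not pass.

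The stalk moved less in sum: its share of counts was 0.389% in WT and 0.384% in WTATPgs, with overlap (exact permutation p = 0.4). Rplp0 had 2540, 2510 and 2500 CPM in WT and 2390, 2380 and 2540 CPM in WTATPgs, so treated replicate 3 was as high as the highest control (-0.05 ± 0.03, adjusted p = 0.326). Rplp1 fell from 977, 948 and 942 CPM to 892, 879 and 890 CPM (-0.11 ± 0.03, adjusted p = 0.0237, lost in 10 of 15 alternatives), and Rplp2 from 498, 478 and 493 CPM to 456, 443 and 449 CPM (-0.12 ± 0.03, adjusted p = 0.0177). Among the 7 proteins that join the subunits late in the cytoplasm, 3 fell: Rps10 and these 2 stalk proteins. Rpl10, the last large subunit protein to join, did not pass (-0.09 ± 0.04, adjusted p = 0.121).

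Paralogs are near copies of a ribosomal protein that can take its place or have other roles. Rpl7l1 had 199, 196 and 194 CPM in WT and 146, 148 and 163 CPM in WTATPgs, with no overlap (-0.37 ± 0.05, adjusted p = 0.000557), where its parent Rpl7 had -0.13 ± 0.04 (adjusted p = 0.0474, lost in 12 of 15 alternatives). The difference between paralog and parent was not tested. Rps27l, which p53 can induce, had 86.4, 82.3 and 83.9 CPM in WT and 65.7, 64.9 and 80.0 CPM in WTATPgs (-0.26 ± 0.08, adjusted p = 0.0334). Its treated replicate 3 was close to the controls, and the call was lost in 8 of 15 alternatives.

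Rps27 (-0.13 ± 0.07, adjusted p = 0.182) and its copy Rps27rt (-0.19 ± 0.07, adjusted p = 0.0774) did not pass. Rpl22, which has a known role in T cell development, fell by 0.15 on the log2 scale (SE 0.04, adjusted p = 0.0197, lost in 8 of 15 alternatives), while its paralog Rpl22l1 had -0.15 ± 0.08 (adjusted p = 0.176). Rpl36a (-0.20 ± 0.04, adjusted p = 0.00301) and its rarely counted paralog Rpl36al (-0.53 ± 0.17, adjusted p = 0.0395, lost in 7 of 15 alternatives) both fell. Rpl36al rested on 53 to 149 counts per library over all 18 libraries. Rpl39 fell (-0.18 ± 0.06, adjusted p = 0.0365, lost in 6 of 15 alternatives), and its paralog Rpl39l had 3 to 19 counts per library in this set and was not tested.

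The 19 tested members that did not pass came from both subunits and the stalk, and included Rpl10, Rpl17, Rpl19, Rpl22l1, Rpl23a, Rpl24, Rpl35, Rpl37a, Rpl41, Rplp0, Rps12, Rps19, Rps21, Rps23, Rps26, Rps27, Rps27rt and Rps29. Rpl24 was the one member with a positive value (0.06 ± 0.36), at 7 to 36 counts per library over the series. Rpl35 varied widely within groups, at 28.7, 34.0 and 40.4 CPM in WT and 36.3, 26.7 and 29.9 CPM in WTATPgs (-0.15 ± 0.16, adjusted p = 0.495).

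WTATPgs replicate 3 differed least from the controls, with a median member change of -0.12 against -0.18 and -0.21 in replicates 1 and 2, although 78 of its 82 members lay below the control mean. Replicates 1 and 2 also held more counts of 12 myeloid markers, such as Lyz2 and Csf1r (201 and 207 CPM, against 46.8 in replicate 3 and 39.4 to 44.1 in WT), and of 8 B cell markers (21.2 and 23.2 CPM, against 4.93 and 8.13 to 8.5). Of the myeloid markers, 5 of 12 (41.7%) rose with ATPgs, where 17.7% of all genes did. With replicate 3 as the only treated library, which takes its spread from the controls, 53 of 83 members were called lower and the median was -0.09. Counts of NK markers were highest in replicate 3, at 23.1, 22.7 and 36.0 CPM in WTATPgs against 12.7 to 14.5 CPM in WT, and mitochondrially encoded genes took 2.19%, 2.18% and 2.01% of counts in WTATPgs against a mean of 1.79% in WT. The part of these other differences in the member result was not tested.

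The median stayed below 0 and no member was called higher in any alternative run, but the number called lower moved. It was 38 with library size as the only scaling, 32 without WT replicate 1, 39 without WT replicate 3, 29 without WTATPgs replicate 1 and 25 without WTATPgs replicate 2, against 73 without WTATPgs replicate 3.

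**Figure D2:**
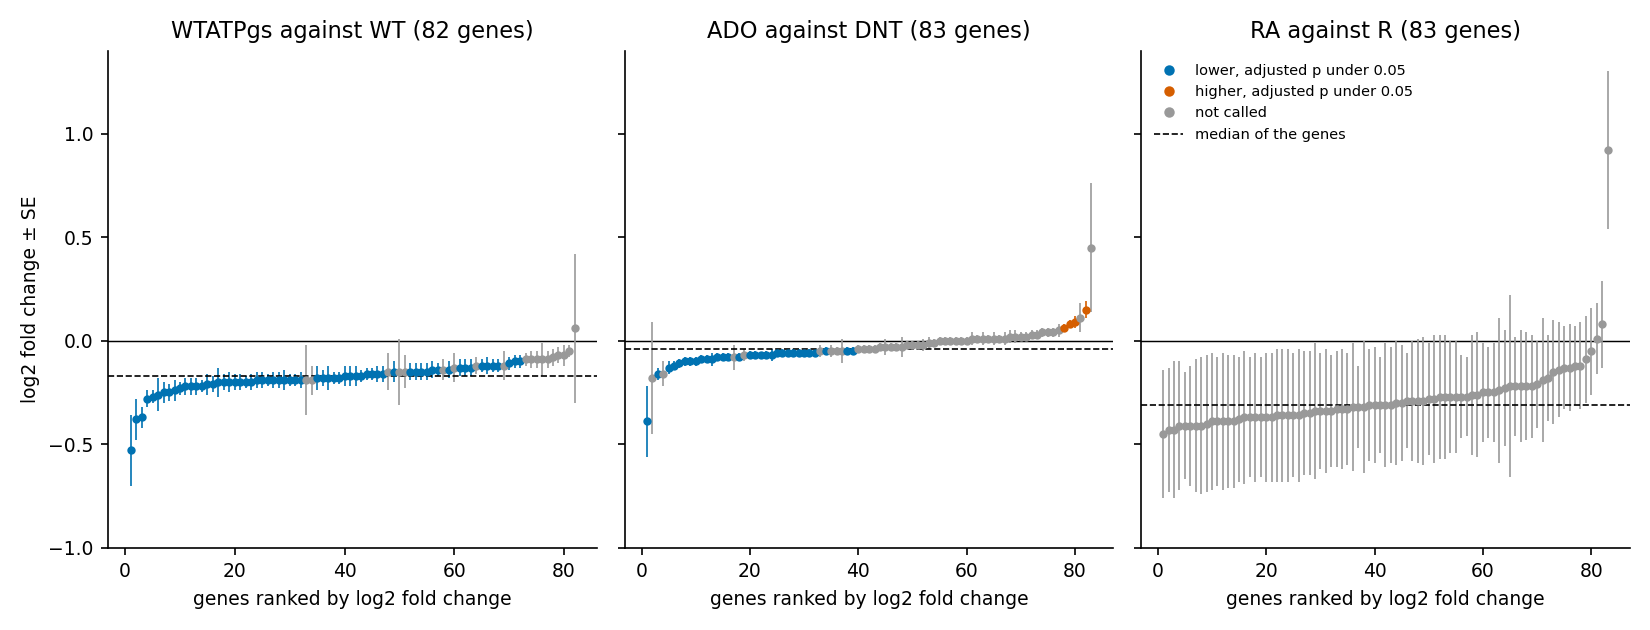
Log2 fold change of each tested member with its standard error for the 3 ligand comparisons, ordered within each comparison; blue points were called lower, orange points higher and grey points not called at an adjusted p of 0.05, and the dashed line is the median. The ATPgs values lie between -0.53 and 0.06 with 63 called lower, the adenosine values lie nearer 0 with 4 called higher and 31 lower, and none was called with the inhibitor.

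Adenosine alone moved the members less, and the stalk the other way. Of 83 tested members, 31 fell and 4 rose, where 24.6% of all 14512 genes tested were called lower and 25.5% higher. The median member changed by -0.04, a fall of 2.73%, beside 0.00 over all genes. In 39 of the 83 members (47.0%) the ADO and DNT libraries lay apart in either direction, against 55.7% of all genes tested. In 33 (39.8%) all treated libraries lay below all controls, against 27.5% of all genes, and in 6 they lay above. Groups that lie apart were thus common in this set. The 4 that rose were Rplp0, Rplp1, Rpl35 and Rps29. By subunit, 18 of 47 large subunit members fell and 1 rose, 13 of 33 small subunit members fell and 1 rose, and 2 of 3 stalk members rose with none lower.

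Rplp0 had 3100, 3260 and 3200 CPM in DNT and 3340, 3400 and 3330 CPM in ADO, so all treated libraries lay above all controls (0.08 ± 0.02, adjusted p = 6.26e-05). Rplp1 had 854, 886 and 862 CPM in DNT and 883, 909 and 915 CPM in ADO, where the lowest treated library lay just below the highest control (0.06 ± 0.02, adjusted p = 0.00792). Its call was lost in 2 of 14 alternatives, the length offset and the run without DNT replicate 1. Rplp2 did not pass (0.03 ± 0.02, adjusted p = 0.201). Summed, the stalk took 0.426%, 0.446% and 0.439% of counts in DNT and 0.467%, 0.479% and 0.472% in ADO, without overlap (exact permutation p = 0.1, the smallest possible).

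Rpl35, a protein near the exit of the large subunit's peptide tunnel, had 57.5, 57.7 and 60.7 CPM in DNT and 62.8, 69.5 and 63.0 CPM in ADO. The groups were apart (0.15 ± 0.04, adjusted p = 0.00316, lost in 1 of 14 alternatives). Rps29, a small zinc-binding protein of the small subunit, had 188, 199 and 195 CPM in DNT and 202, 209 and 208 CPM in ADO, also apart (0.09 ± 0.03, adjusted p = 0.00345, lost in 2 of 14 alternatives).

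Among those that fell, Rpl35a had the largest change of those at 5 CPM or more, from 249, 244 and 245 CPM in DNT to 225, 210 and 226 CPM in ADO (-0.16 ± 0.03, adjusted p = 7.25e-07). Rpl35a is not a copy of Rpl35 but a different large subunit protein. Rpl3 had 1920, 1940 and 1910 CPM in DNT and 1790, 1740 and 1780 CPM in ADO (-0.12 ± 0.02, adjusted p = 7.49e-09), and Rpl7l1 had 203, 217 and 201 CPM against 191, 187 and 190 CPM (-0.13 ± 0.03, adjusted p = 9.28e-05). In both the groups lay apart. Rps27a fell by 0.10 on the log2 scale (SE 0.02, adjusted p = 4.7e-05).

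Rpl11 fell slightly, from 621, 636 and 625 CPM to 608, 600 and 608 CPM (-0.05 ± 0.02, adjusted p = 0.0201, lost in 4 of 14 alternatives), and Rpl5 did not pass (-0.03 ± 0.02, adjusted p = 0.148). Rps6 had 1400, 1430 and 1400 CPM in DNT and 1380, 1380 and 1390 CPM in ADO, apart but not past the threshold (-0.03 ± 0.02, adjusted p = 0.116). Rpl7 fell (-0.08 ± 0.02, adjusted p = 0.000239), and so did Rpl36al (-0.39 ± 0.17, adjusted p = 0.0456, lost in 7 of 14 alternatives, DESeq2 and limma-voom among them). Rpsa (0.00 ± 0.02), Rps19 (0.04 ± 0.02), Rps26 (0.04 ± 0.02), Rpl13a (-0.05 ± 0.06), Rpl22 (0.01 ± 0.03), Rpl22l1 (-0.08 ± 0.06), Rps27 (0.02 ± 0.03), Rps27l (0.01 ± 0.03), Rpl36a (-0.05 ± 0.03), Rpl39 (0.05 ± 0.03), Rpl39l (0.45 ± 0.31) and Rpl10 (-0.02 ± 0.02) did not pass.

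The split between rises and falls depended on the scaling, since most effects were under 0.1. With library size as the only scaling, 20 members were called higher and 9 lower with a median of 0.01, so the direction of the median flipped, and with an offset fitted on transcript length 3 were higher and 52 lower, with a median of -0.09. Without DNT replicate 1 the number called higher was 2 rather than 4. Other protein-coding genes with a transcript model under 1000 bases, the size class of 69 of the members, were called higher in 33.4% and lower in 17.3%. The 12 myeloid markers summed to 10.9 to 12.7 CPM in DNT and 17.2 to 21.5 CPM in ADO, with Elane at 0 in every library. Cd68 alone had a mean of 8.31 CPM in DNT and 13.5 CPM in ADO. Only 5 of the 12 were tested, of which 3 rose (Cd14, Cd68 and Lyz2) and 1, Fcgr1, fell (-1.19). The T cell markers summed to 3300 to 3320 CPM and 3510 to 3590 CPM, and Cd4, Cd8a and Cd8b1 to 24.9 to 26.3 CPM and 18 to 21.1 CPM. Whether these differences bear on the members was not tested.

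In the set given the A2aR inhibitor, no member was called with adenosine. Of 83 tested, 0 rose and 0 fell by edgeR's quasi-likelihood test, where 0.287% of the 12873 genes tested were called higher and 0.855% lower. DESeq2 and limma-voom also called 0, and 1 member, Rpl24, had an unadjusted p under 0.05 (0.92 ± 0.38, adjusted p = 0.354). The median was -0.31, a value 19.2% below R, and it rested on R replicate 3: without that library it was 0.08.

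The R libraries differed from each other more than R and RA did. The median member lay at -0.09, -0.55 and 0.66 in R replicates 1, 2 and 3 and at -0.22, -0.15 and -0.29 in the RA libraries, on the log2 scale against the mean of R. In R replicate 3, 80 of 83 members were above that mean, and the exceptions, named after their values were seen, were Rplp0, Rpl8 and Rps2. Rps6 had 3040, 2300 and 4790 CPM in R and 2780, 2840 and 2570 CPM in RA (-0.31 ± 0.27, adjusted p = 0.765), and all RA values lay within the spread of R.

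Rplp0, in contrast, had 6680, 5320 and 5400 CPM in R and 6060, 5710 and 5030 CPM in RA (-0.05 ± 0.21, adjusted p = 0.961), with replicate 1 the highest. Rpl3 had 3670, 2900 and 3950 CPM in R and 3270, 3410 and 3000 CPM in RA (-0.12 ± 0.21, adjusted p = 0.896). Rpl7l1 had 302, 253 and 334 CPM in R and 297, 304 and 292 CPM in RA (0.01 ± 0.17, adjusted p = 0.996). These standard errors are several times those of the other sets, so effects of the size seen with ATPgs or adenosine alone were not detectable here. Mitochondrially encoded genes took 3.66%, 3.14% and 5.47% of counts in R and 3.95%, 3.81% and 3.71% in RA, highest in the same library as the members. The stalk share went the other way, at 0.966%, 0.822% and 0.748% in R, lowest in replicate 3, and at 0.917%, 0.891% and 0.825% in RA.

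**Figure D3:**
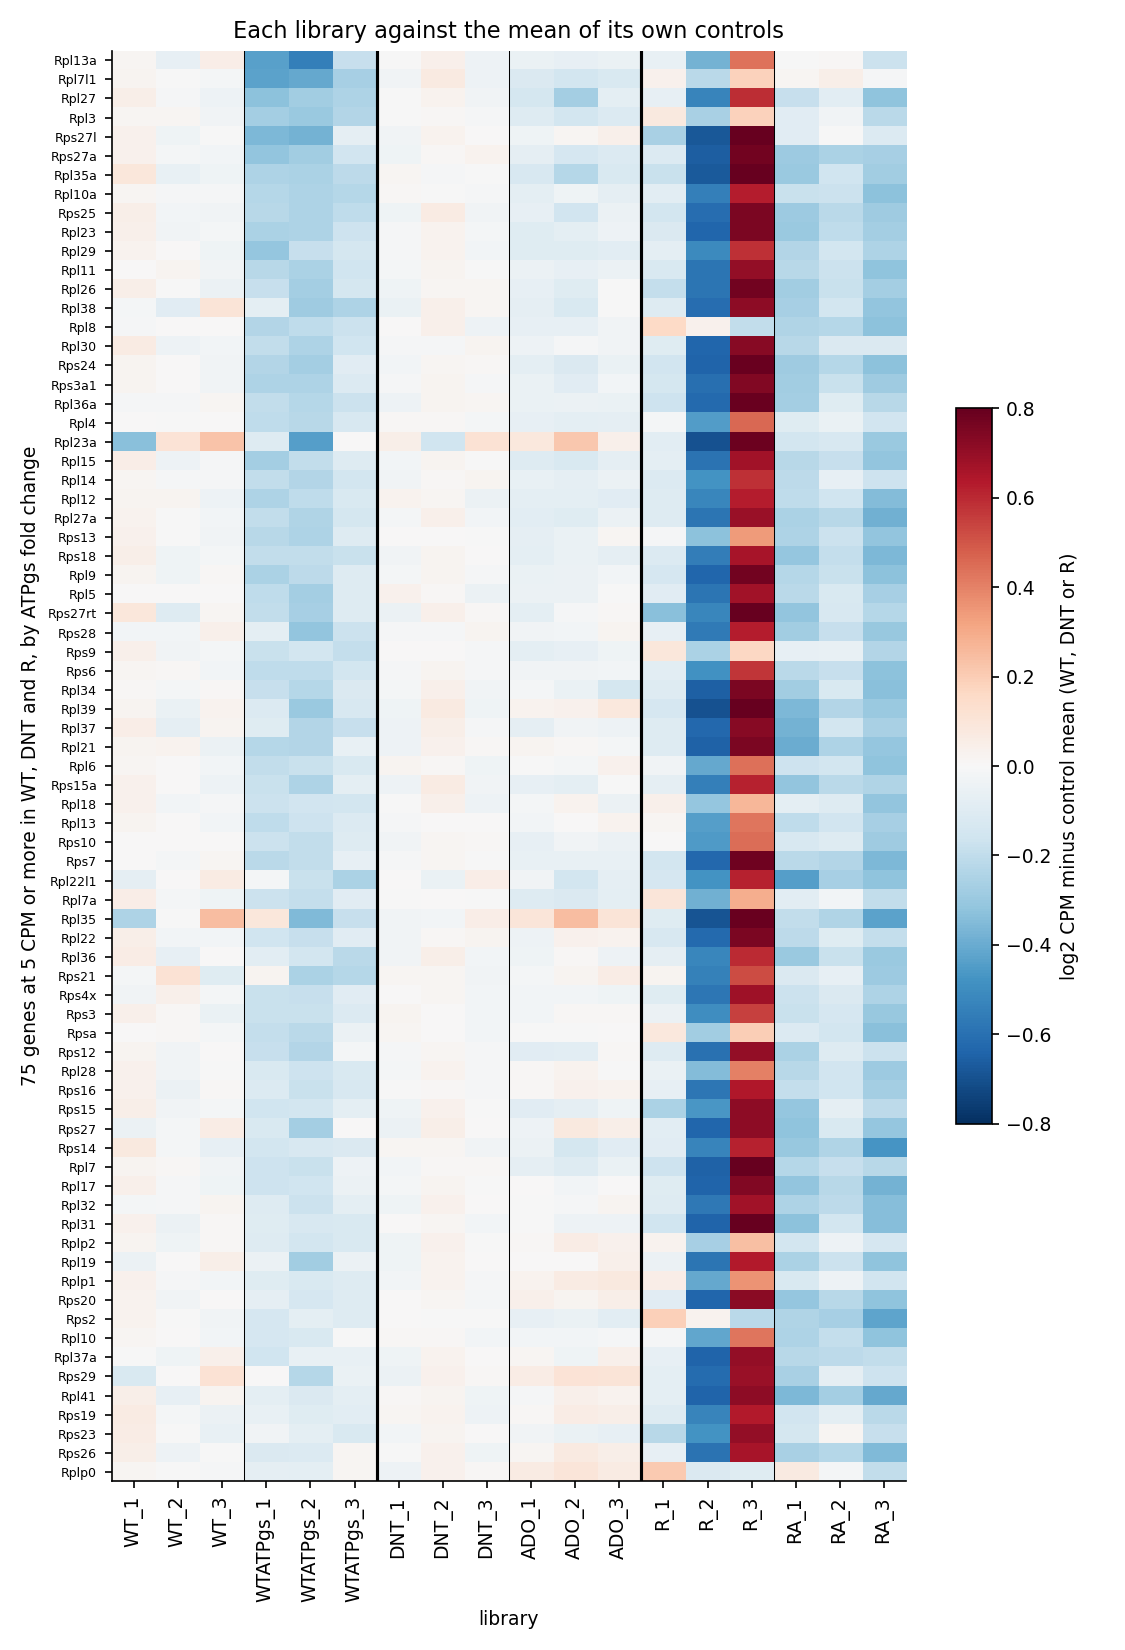
Log2 ratio of each member to its mean in the control libraries of the same set, for all 18 libraries (columns) and 75 members at 5 CPM or more in every control group (ordered by ATPgs fold change), with red above and blue below the control mean and colours ending at 0.8. WTATPgs columns are below control over most members, DNT and ADO columns are near 0, and R replicates 2 and 3 go in opposite directions (medians -0.55 and 0.66).

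The effect of adenosine with the inhibitor minus the effect without it, tested in a fit of 12 libraries, called 0 members higher and 0 lower of 83. Over all genes, 0.909% were called higher and 3.14% lower. The median difference was -0.31, DESeq2 and limma-voom called 0, and 1 member had an unadjusted p under 0.05. For Rplp0 the difference was -0.14 ± 0.18 (adjusted p = 0.775) and for Rpl3 it was -0.03 ± 0.20 (adjusted p = 0.973), so the rise of the one and the fall of the other with adenosine were not shown to differ with the inhibitor. Without R replicate 3 the median was 0.15 and 3 members were called higher: Rpl36al (0.71), Rps27l (0.43) and Rps23 (0.34), with adjusted p of 0.0479, 0.0278 and 0.0478.

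The ATPgs effect minus the adenosine effect, each against its own controls, was below 0 in most members. In the fit of 12 libraries 21 of 83 were lower and 0 higher, where 9.12% of all 15788 genes tested were called lower and 8.13% higher, and the median was -0.13 beside -0.01 over all genes. DESeq2 called 21 lower and limma-voom 22, neither called a member higher (0), and 50 members had an unadjusted p under 0.05. Since each ligand was given in its own set, a difference between ligands and a difference between sets in how the cells respond cannot be told apart.

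Of the members called, Rpl7l1 (-0.23 ± 0.06, adjusted p = 0.0187) and Rpl39 (-0.22 ± 0.07, adjusted p = 0.0345) of the large subunit were among those with the largest differences. Rpl30, which binds its own transcript in yeast, followed (-0.17 ± 0.05, adjusted p = 0.0322), as did Rplp1 (-0.16 ± 0.04, adjusted p = 0.0116), Rpl11 (-0.16 ± 0.04, adjusted p = 0.0247), Rps6 (-0.15 ± 0.04, adjusted p = 0.0212) and Rpl3 (-0.14 ± 0.04, adjusted p = 0.016). Several of these calls did not hold in all 21 alternatives: it was lost in 12 for Rpl30, 10 for Rpl11, 9 for Rpl39, 6 for Rps6, 3 for Rpl7l1 and 1 each for Rplp1 and Rpl3. Rplp0 did not pass (-0.12 ± 0.04, adjusted p = 0.0922). Rplp1 was the one member that fell with ATPgs and rose with adenosine, with the fall lost in 10 of 15 alternatives and the rise in 2 of 14. Beyond it, 29 of the 82 members tested in both sets (35.4%) fell with both ligands, among them Rpl3, Rpl7l1, Rpl11, Rpl35a and Rps27a, where 13.6% of the 14053 genes tested in both did. Another 33 members fell with ATPgs and were not called with adenosine, and Rps12 and Rps23 fell with adenosine and were not called with ATPgs.

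The number of members called lower ranged widely with the libraries used. It was 5 without WT replicate 1, 8 without WTATPgs replicate 2, 9 to 13 without WT replicate 3, WTATPgs replicate 1, DNT replicate 1 or 3 or any single ADO library, and 67 without WTATPgs replicate 3, and an offset on transcript length gave 7.

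Genes that make, regulate and accompany the ribosome were followed through lists chosen by function, and each gene given here as rising or falling passed an adjusted p of 0.05. Over all genes tested, 19.4% fell and 17.7% rose with ATPgs, and 24.6% fell and 25.5% rose with adenosine. In the ribosome biogenesis list, which holds nucleolar factors that process rRNA and assemble subunits, 48 of 49 tested genes fell with ATPgs, with a median of -0.54, and the exception, Riok1, a kinase of small subunit maturation, rose by 0.23. Examples are Utp20 (-0.70), Heatr1 (-0.58) and Gnl3 (-0.67). With adenosine 47 of 49 fell and 0 rose, with a median of -0.34, among them nucleolin, Ncl (-0.46), Wdr43 (-0.52) and Mdn1 (-0.43). The difference of the 2 effects was lower in 22 of 49 (44.9%) and higher in 1 (2.04%), beside 9.12% and 8.13% of all genes. Both medians lie further from 0 than those of the members (-0.17 and -0.04), a description of the 2 lists in the same libraries.

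Other genes whose mRNAs carry a TOP motif, 24 in all, mostly fell with both ligands. With ATPgs 20 fell and 1, Eif3f, rose (0.53), with a median of -0.24. With adenosine 17 fell, with Npm1 at -0.48 and Hnrnpa1 and Pabpc1 among them, while Snhg8, Eif3f and Tpt1 rose, and the median was -0.13. Of translation initiation factors, 22 of 27 fell with ATPgs and 26 of 27 with adenosine, and 0 rose with either, with medians of -0.24 and -0.21 (with ATPgs, Eif4g1 -0.38, Eif5a -0.41 and Eif3g -0.32). Of ribosomal proteins with other names, Rack1 fell with both ligands (-0.15 with ATPgs), and Fau (-0.05 with ATPgs) passed with neither.

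Of 18 genes of RNA polymerases I and III, which make rRNA and tRNA, 12 fell with each ligand, while Maf1, the repressor of polymerase III, rose with both (0.48 with ATPgs, 0.45 with adenosine). Among transcription factors tied to ribosomal protein genes, Myc fell with ATPgs (-0.64) and with adenosine (-0.55), and Mycn with both (-0.60 and -1.28). Sp1 fell with ATPgs (-0.14) and Elf1 (0.29) and Yy1 (0.38) rose, and with adenosine 7 of 12 fell and 3 rose. In the mTORC1 and TOP control list of 25 genes, 6 rose (24%) and 8 fell (32.0%) with ATPgs, and 6 rose (24%) and 14 fell (56.0%) with adenosine, beside 17.7% and 19.4% of all genes with ATPgs and 25.5% and 24.6% with adenosine, so the rises with adenosine were near the share of all genes. With ATPgs Ddit4 (1.07), Sesn3 (0.69) and Flcn (0.67) rose, and Larp1 (-0.49), Larp4 (-0.39) and the GTPase Rragd (-1.08) fell. Ddit4 and the sestrins dampen mTORC1, while folliculin, the product of Flcn, acts on the Rag GTPases and promotes its recruitment by amino acids.

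Among genes of p53 and nucleolar stress, 6 of 13 (46.2%) rose with ATPgs, where 17.7% of all genes did, among them the cell cycle inhibitor Cdkn1a (0.23), Mdm2 (0.23) and Ccng1 (0.30), and 1, Mdm4, fell (-0.11). With adenosine 5 rose (38.5%) and 3 fell (23.1%), beside 25.5% and 24.6% of all genes, with Cdkn1a (-0.15) and Mdm2 (-0.10) among the 3 that fell. The difference of effects was higher in 4 (30.8%) and lower in 1 (7.69%), beside 8.13% and 9.12% of all genes. Of 42 short nuclear genes of oxidative phosphorylation, 5 fell (11.9%) and 0 rose with ATPgs (median -0.08), beside 19.4% and 17.7% of all genes. With adenosine 15 rose (35.7%) and 1 fell (2.38%), with a median of 0.07, beside 25.5% and 24.6% of all genes. Other protein-coding genes with a transcript model under 1000 bases were called higher with adenosine in 33.4%, near the share of this list. In none of these lists was a gene called for adenosine in the set with the inhibitor. Calls were rare there over all genes as well, at 0.287% higher and 0.855% lower. The adenosine effect with minus without the inhibitor was called for 4 of their genes, where 3.14% of all genes were called lower and 0.909% higher. It was lower for Maf1 (-0.69 ± 0.13, adjusted p = 0.00903), Castor1 (-0.97 ± 0.20, adjusted p = 0.0167) and Bbc3 (-0.73 ± 0.18, adjusted p = 0.0433), and higher for Rragd (1.25 ± 0.26, adjusted p = 0.0186).

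**Figure D4:**
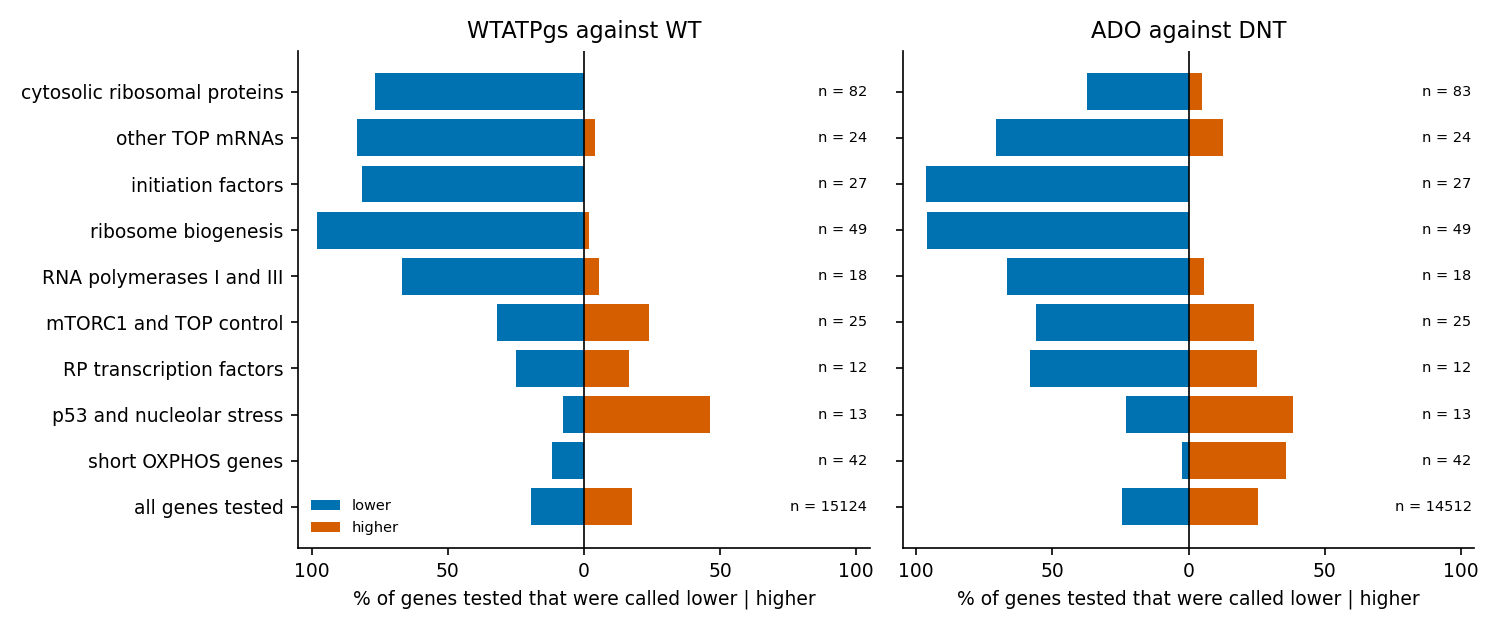
Percent of the tested genes of each list that were called lower (blue, to the left) or higher (orange, to the right) with ATPgs and with adenosine, with the number tested; both axes start at 0. The members have 76.8% lower with ATPgs and 37.3% with adenosine, the biogenesis list 98.0% and 95.9%, and all genes tested 19.4% and 24.6%.

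Levels compared per kilobase of transcript model were led by the small subunit gene Rps3 in all control groups: 2540 CPM per kilobase in WT, 2780 in DNT and 8950 in R. Rps9 (2290) was also high in WT, Rps2 (2520) and Rplp0 (2350) in DNT, and Rpl41 (7730) in R. The median member had 814, 809 and 2160. The lowest tested members in WT were Rpl24 (1.23), Rpl36al (7.73), Rpl35 (36.4), Rpl22l1 (46.1), Rpl13a (48.6) and Rpl23a (51.4), of which Rpl24, Rpl36al and Rpl13a share same-strand exons with read-through gene models that hold 0 counts. Lower still in counts were the tissue-restricted paralogs Rpl39l (3 to 44 counts per library), Rpl3l (0 to 7) and Rpl10l (0 in every library). The longest models, Rps20 with 3706 bases and Rpl5 with 2045, stand far from the median of 614, so values per length depend on which transcript model is counted. The length used was that of the shortest protein-coding model, 489 bases for Rps3 and 478 for Rps9, so their high rank rests on short models. As counts over the library total, without length, Rps3 had 1220 CPM in WT, below Rps2 (1770) and Rplp0 (2470).

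For ratios between sets and between R libraries, CPM were counts over the library total without TMM factors. They are therefore not on the scale of the CPM given above. All 80 members compared had more CPM in R than in DNT, with ratios from 1.26 (Rpl8) to 5.4 (Rps27rt) and a median of 2.67, while WT over DNT had a median of 0.982. Rpl13a (1.32) and Rpl7l1 (1.38) were near the low end and Rpl35 (3.92), Rpl39 (3.79) and Rpl41 (3.63) near the high end. Across these 80 members Spearman's rho between transcript length and the R over DNT ratio was -0.37, against 0.08 for WT over DNT, a description over genes that share the same libraries. Other protein-coding genes also had higher R over DNT ratios at short lengths: their median was 1.22 below 500 bases (234 genes), 1.18 from 500 to 1000 (1064 genes), 0.853 from 1000 to 2000, 0.612 from 2000 to 4000 and 0.423 from 4000 bases on. Members in the 2 shortest classes had medians of 2.85 (26 genes) and 2.66 (40 genes), above those of the other genes of their length.

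Between R replicate 3 and the mean of replicates 1 and 2, the same classes of other genes had median ratios of 1.11, 0.937, 0.754, 0.678 and 0.602, and members of the 2 shortest classes 1.64 and 1.57. The inhibitor, the set and its table cannot be told apart for the level in R, since no library of the third set lacks the inhibitor. Among the members, length was not related in the same way to the ligand effects: rho across the 80 members was -0.0 for ATPgs, -0.1 for adenosine and 0.12 for adenosine with the inhibitor. Since 69 members have models under 1000 bases, few long ones enter rho. Other protein-coding genes under 1000 bases had a median adenosine effect of 0.07, against -0.0 for longer ones. The shorter were called higher in 33.4% against 27.8%, and lower in 17.3% against 29.0%. With ATPgs these medians were -0.0 and 0.01, and with adenosine and the inhibitor -0.07 and -0.02.

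**Figure D5:**
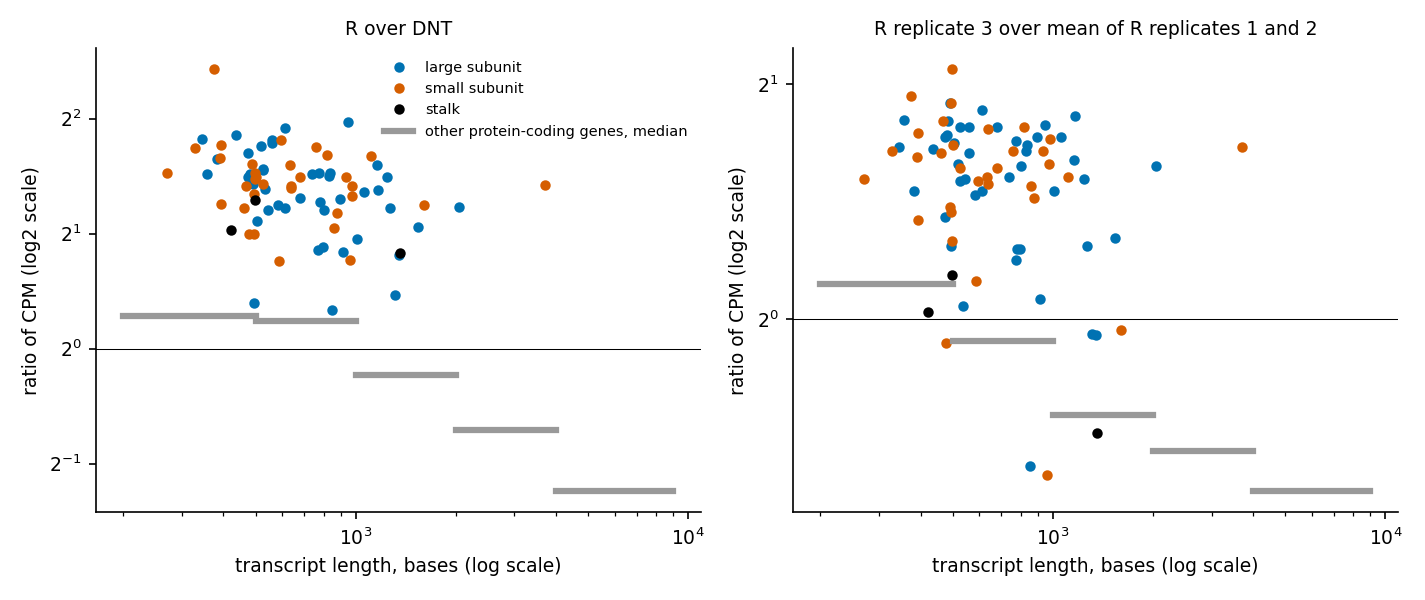
Ratio of CPM (counts over the library total, without TMM factors) in R to DNT (left) and in R replicate 3 to the mean of R replicates 1 and 2 (right) against transcript length for 80 members (points), both axes on log scales, with grey bars for the median of other protein-coding genes by length class. All members lie above 1 on the left, and the other genes' medians go from 1.22 below 500 bases to 0.423 at 4000 bases or more.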

How the data were processed

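Gene counts were read from 3 tables that the authors deposited, each with 6 libraries (3 control, 3 treated). The submitters' processing notes name HISAT2 2.1.0 and GRCm38. Not given in the sources used here: counter, annotation release and strand setting. GENCODE M21 supplied symbols and transcript lengths and matched 99.6% to 99.7% of gene IDs. For a protein-coding gene the length was that of its shortest protein-coding model, from the GENCODE basic set where it had one.

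Each ligand effect was fitted in its own table, and each difference of effects on 12 libraries, by the robust quasi-likelihood test of edgeR (4.0.16, under R 4.3.3) after filterByExpr and TMM scaling. The two-sided p-values were adjusted by Benjamini and Hochberg's method across every gene tested, with 0.05 as threshold. CPM values use the same factors, except in the ratios between sets and between R libraries, which use counts over the library total. The SE of a log2 fold change comes from its F statistic. Shares of counts were tested by exact permutation. Alternatives were DESeq2 1.42.0, limma-voom 3.58.1, other scalings and filters, a replicate block, a length offset and leaving out each library. WTATPgs replicate 3 as the only treated library was added after seeing the data. The code was tested on simulated counts, with 200 genes changed 2-fold in each comparison. Of these, 73.5% were recovered for ATPgs, 88.0% for adenosine and 65.0% for the difference between them. With the inhibitor 50.0% were recovered, and 41.0% for adenosine with minus without it. False calls were 6.96%, 9.74% and 6.47% of calls for ATPgs, adenosine and their difference, above the 0.05 threshold. With the inhibitor they were 0.99%, and with minus without it 2.38%. Changes under 2-fold are not covered.

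The members and all lists were chosen with earlier results of these data known. Named were a set panel of members (the stalk, the 5S particle, paralog pairs and others), the 5 members with the largest rise and the 5 with the largest fall among those past the threshold, at 5 CPM or more and with groups apart, and 3 genes per list. A few of them are not reported here. Promoters came from RefSeq.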

Additional observations from a re-analysis of the deposited data

Results flagged for a closer look

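The difference between the ATPgs effect and the adenosine effect passed its own test, in a fit of 12 libraries, for 21 members, all with the ATPgs effect below the adenosine effect. Of the members named, these were Rplp1 (-0.16), Rps6 (-0.15), Rpl11 (-0.16), Rpl3 (-0.14), Rpl7l1 (-0.23), Rpl39 (-0.22) and Rpl30 (-0.17), as log2 differences. Rpl30 is the one among them whose control level differed strongly between the sets, at 422, 393 and 397 CPM in WT and 80.2, 80.4 and 81.9 CPM in DNT.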

How the results depend on the processing

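The ATPgs count of members lower went from 63 to 38 (median -0.12) with library size only and to 25 to 73 when each library was left out (median -0.20 to -0.13), and with WTATPgs replicate 3 alone the median was -0.09. The adenosine counts became 20 higher and 9 lower (median 0.01) with library size only, 52 lower (median -0.09) with the length offset, and 2 to 6 higher without each library. For adenosine with minus without the inhibitor, leaving out each library gave 0 to 3 members higher and medians of -0.48 to 0.15, and a range for Rps27l of -0.50 to 0.43, which turned positive without R replicate 3. With the inhibitor, the median ranged from -0.56 to 0.08 and the share difference from -2.32 to 0.506 percentage points. For ATPgs minus adenosine, members lower were 37 (library size only), 43 (no filter), 7 (length offset, median -0.06) and 5 to 67 without each library (median -0.17 to -0.11), and the median was -0.07 with WTATPgs replicate 3 alone. The ATPgs share difference was -0.114 percentage points without members that have a counted pseudogene. That share sums fewer members over the same library total, so its size cannot be set against the -0.388 points of all members. Libraries with the same replicate number had correlations of -0.205 to 0.0517 in 9 pairs, and different numbers -0.0515 to 0.179 in 18. These values showed no pairing by number, but with 3 libraries per group they cannot exclude it. With the replicate block, 46 members were lower for ATPgs and 6 for the difference of effects. Of single-gene values, 256 of 330 kept direction and call for ATPgs, 331 of 364 for adenosine, 308 of 308 with the inhibitor and 431 of 524 for ATPgs minus adenosine. Counts were low for Rpl24 (7 to 36 per library), Rpl36al (53 to 149) and Rpl39l (3 to 44). Rpl24 and Rpl36al share same-strand exons with read-through gene models that hold 0 counts, and whether this lowered their counts was not tested. The cause of the changes between settings was not tested either.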

Other observations

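Rpl30 had the largest ratio of WT to DNT among the 80 members compared, 4.99, with 422, 393 and 397 CPM in WT, 80.2, 80.4 and 81.9 CPM in DNT, and 162, 112 and 288 CPM in R. The gene has 9 named pseudogenes, and the WT table holds fewer gene IDs (52550) than those of DNT and R (53465 each). Whether a difference in counting bears on this ratio was not tested. Rps19bp1, which the symbol rule met but which is no ribosomal protein, fell with ATPgs (-0.30 ± 0.07, adjusted p = 0.00932) and with adenosine (-0.22 ± 0.05, adjusted p = 6.23e-05).

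Genes encoded in the mitochondrial genome rose in 9 of 14 cases (64.3%) with ATPgs, with a median of 0.34, where 17.7% of all genes rose. With adenosine 6 of 14 fell (42.9%) and 2 rose (14.3%), with a median of -0.14, beside 24.6% and 25.5% of all genes. Counts on the named pseudogenes of the members were 2.75 to 3.04 per 100 member counts in the first set, 3.95 to 4.1 in the second and 5.37 to 6.17 in the third.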
